A study of Mus musculus with 6 samples.

Results

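Abundant noncoding RNAs were followed in total RNA of brown adipose tissue, a fat that burns fuel to make heat, from the interscapular depot. The 7 genes were chosen by name as structural or nuclear noncoding RNAs: Rn7s1 and Rn7s2 (7SL RNA), Rn7sk (7SK RNA), Rmrp, Rpph1, Malat1 and Neat1. In the table of 54385 gene rows, 6 of the 7 genes were found, on 7 rows, since Rmrp has a pair of rows and no row for Rn7s2 was analysed here. All 7 rows passed the low-count filter, which kept 18114 rows in all.

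All mice were C57BL/6N, 20 weeks old, had eaten chow to 8 weeks of age and then a high-fat diet for 12 weeks, and had spent 24 h at 4 °C. Wild-type mice gave 3 libraries and ADCY3∆AT mice gave 3. The latter are knockouts that lack adenylyl cyclase 3 in its AT form, and these are called knockout libraries below. Adenylyl cyclase 3 makes the second messenger cyclic AMP. No group kept warm or on chow was analysed here, so all values belong to fat of cold-exposed mice on a high-fat diet. The sample labels call the depot interscapular and the series text calls it inguinal. The labels do not state that replicates are separate animals, so p-values measure only the spread between these samples, and that spread may be technical.

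Library totals ranged from 44826777 to 54933588 estimated counts. The brown fat marker Ucp1 held 9886 to 10858 CPM of library totals (CPM are counts scaled to a common library size). All 12 genes of the brown adipocyte list, which also holds general adipocyte genes, were above 0 in every library. Of these, 0 passed in edgeR and 1, the fatty acid elongase Elovl3, was lower in DESeq2 (log2 fold change -0.38 ± 0.11, SE, DESeq2 adjusted p = 0.0332). The shares over all rows tested by each tool were 0.00552% in edgeR and 1.15% in DESeq2. Adcy3 had 651.9 to 727.8 CPM in wild-type libraries and 341.9 to 505.6 CPM in knockout libraries. A row outside the annotation whose identifier ends like that of Adcy3 had 477.4 to 628.6 CPM in wild-type libraries and each of the 3 knockout libraries lists it at 0. The summed level of 30 skeletal muscle markers was 1841 to 5005 CPM in wild-type libraries and 294.9 to 1034 CPM in knockout libraries, without overlap, and 5 of these markers, Ckm among them, were at 0 in ADCY3∆AT replicate 1. Whether muscle RNA has a part in any value below was not tested. In bulk tissue, fewer cells of a type and less RNA per cell cannot be told apart.

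These RNAs work as parts of RNA-protein machines rather than as messages. 7SL RNA is the scaffold of the signal recognition particle, which takes ribosomes that make secreted and membrane proteins to the endoplasmic reticulum. 7SK RNA holds the elongation kinase P-TEFb inactive with the help of HEXIM proteins. Rmrp and Rpph1 are the RNA subunits of RNase MRP, which cuts precursor ribosomal RNA, and of RNase P, which trims the 5′ ends of precursor transfer RNAs. These short RNAs are made by RNA polymerase III. Malat1 and Neat1 are long RNAs made by RNA polymerase II. Malat1 gathers at nuclear speckles, which store splicing factors, and Neat1 is the scaffold of paraspeckles.

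Transcript sequences show which rows can be told apart by reads. Those printed are GENCODE M21 transcripts on the mouse build GRCm38, written as DNA. Rn7s1 and Rn7s2 lie on opposite strands of chromosome 12, 201587 bp apart. Both transcripts are 300 nt long, have 1 exon and are 100% identical, so reads of either copy would match the row of Rn7s1, and its values are taken as 7SL RNA from both loci.

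The Rmrp rows are nested on the minus strand. The row of the ribozyme class spans chr4:43492788-43493058 (271 nt) and lies inside a row of the lincRNA class at chr4:43492783-43493063 (281 nt). The capitals mark what both rows share, and only 5 bases at each end, in lower case, belong to the lincRNA row alone. The labels do not say how reads were divided between these rows, so the values of each row alone are uncertain.
Rmrp lincRNA row: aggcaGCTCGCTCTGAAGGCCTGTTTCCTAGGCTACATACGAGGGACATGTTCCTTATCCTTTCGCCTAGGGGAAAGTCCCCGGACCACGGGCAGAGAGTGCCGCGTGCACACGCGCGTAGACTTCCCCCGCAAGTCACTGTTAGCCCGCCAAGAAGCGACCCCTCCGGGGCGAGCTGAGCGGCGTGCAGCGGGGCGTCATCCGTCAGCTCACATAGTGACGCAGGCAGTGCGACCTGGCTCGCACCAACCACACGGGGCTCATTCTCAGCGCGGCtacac

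Rn7sk (chr9:78175303-78175633, minus strand, 331 nt) is shown by its first 120 bases, the end of the RNA whose hairpin is known to bind HEXIM proteins at GATC repeats (GAUC in RNA). The capitals mark each GATC, a motif that is its own reverse complement. Copies start at positions 13, 42 and 64, counted from the 5′ end, and these are the 3 copies of the whole transcript. At least 1 copy is found in 66.4% and at least 3 copies in 9.1% of the 4689 annotated transcripts of 300 to 360 nt, so the match is a description only.
Rn7sk: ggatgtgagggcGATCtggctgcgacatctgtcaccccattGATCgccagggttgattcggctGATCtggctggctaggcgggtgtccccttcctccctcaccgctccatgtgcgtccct

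Rpph1 spans chr14:50807449-50807767 on the minus strand (319 nt) and begins 73 bp from Parp2, which runs the opposite way. It overlaps Ccnb1ip1 on the same strand, which was listed at a mean of 0 CPM, against a mean of 2110 CPM for Rpph1. Malat1 (chr19:5795690-5802672, longest transcript 6983 nt) and Neat1 (chr19:5824708-5845478, longest transcript 20771 nt) lie on the minus strand, 22035 bp apart. GC content was 62.3% for 7SL RNA, 58.0% for 7SK RNA, 64.2% for the Rmrp ribozyme row and 67.1% for Rpph1, against 42.5% for Malat1 and 47.3% for Neat1.

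The 7 rows together held 8.65%, 8.94% and 8.43% of the counts in the wild-type libraries and 8.36%, 8.40% and 9.45% in the knockout libraries. Genotype means were 8.67% ± 0.256 in wild-type libraries and 8.74% ± 0.614 in knockout libraries (SD, n = 3 each), so the genotypes differed by less than the spread within either. ADCY3∆AT replicate 3 was the highest library, and the other 5 lay between 8.36% and 8.94%. Counting error was small beside this spread, since no 95% Wilson interval of a row's share was wider than 0.00759 percentage points on either side. These intervals cover counting error only.

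7SL RNA made up most of that share. The Rn7s1 row held 6.73%, 6.96% and 6.54% of the wild-type libraries and 6.49%, 6.44% and 7.39% of the knockout libraries. It was the highest of all rows in 4 libraries and second to mt-Co1, a mitochondrially encoded subunit of cytochrome oxidase, in 2 (ADCY3∆AT replicates 1 and 2). It accounted for 76.6% to 78.2% of the counts of the 7 rows. Mitochondrially encoded rows, for scale, held 17.9% to 20.7% of each library.

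7SK RNA held 0.670%, 0.711% and 0.688% of the wild-type libraries and 0.668%, 0.688% and 0.745% of the knockout libraries, and ranked 12th or 13th of all rows. Rn7s1 and Rn7sk together carried 99.9% of the counts in the misc_RNA class, which has 560 rows, in every library. Rpph1 held 0.208%, 0.214% and 0.205% in wild-type libraries and 0.198%, 0.217% and 0.223% in knockout libraries, with ranks from 36 to 40.

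The Rmrp ribozyme row held 0.136%, 0.146% and 0.138% in wild-type libraries and 0.125%, 0.144% and 0.153% in knockout libraries. The nested lincRNA row held 0.0539%, 0.0432% and 0.0328% in wild-type libraries and 0.0369%, 0.0337% and 0.0476% in knockout libraries, or 19.02% to 28.4% of the sum of both rows. The sum was 0.183% ± 0.0108 in wild-type libraries and 0.180% ± 0.0196 in knockout libraries (SD, n = 3 each). The lincRNA row alone had 0.0433% ± 0.0105 and 0.0394% ± 0.00725, so the sum varied less relative to its mean, not in percentage points. The ribozyme class, with 22 rows of which Rmrp and Rpph1 are the highest, held 0.349% ± 0.00978 in wild-type libraries and 0.353% ± 0.0274 in knockout libraries.

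Malat1 held 0.728%, 0.716% and 0.693% of the wild-type libraries and 0.676%, 0.739% and 0.743% of the knockout libraries, and ranked from 10th to 13th. Neat1 held 0.123%, 0.143% and 0.131% in wild-type libraries and 0.168%, 0.142% and 0.145% in knockout libraries, and ranked from 52nd to 77th. Its highest library was ADCY3∆AT replicate 1, the library in which the Malat1 share was lowest, and the groups overlapped because wild-type replicate 2 lay between the knockout libraries. Malat1 and Neat1 held 74.0% to 76.4% of the counts in the lincRNA class, which has 5465 rows.

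**Figure D1:**
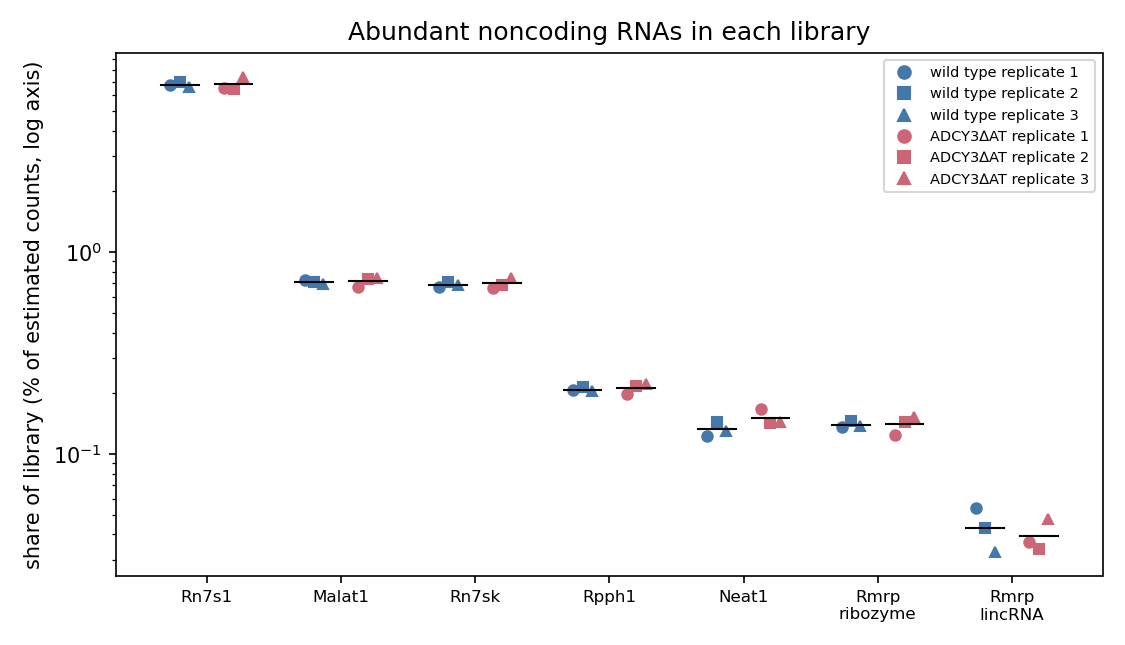
Share of each library held by each row (percent of estimated counts, log axis). Points are libraries, with a marker shape for each replicate number, and black lines are genotype means. Rn7s1 lies between 6.44% and 7.39% in all 6 libraries, and the genotypes overlap for every row.

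Length changes the order of the levels. The full annotated length was used, without allowance for fragment length, so the levels per kb of the short RNAs are uncertain. Per kb of the longest transcript, Rn7s1 had a mean of 225334 CPM per kb, the highest value of all rows, and Rn7sk had 20996, the fifth highest. Of the other members, Rpph1 had 6610 CPM per kb and the Rmrp ribozyme row had 5166 CPM per kb. Malat1, nearly level with Rn7sk as a share, lay below it with 1025 CPM per kb, and Neat1 had 68.4. With the length of the short Neat1 transcript, 3004 nt, Neat1 would have 473 CPM per kb, and a gene-level row does not tell the forms apart. Rpph1 lay between 6209 and 6993 CPM per kb and the Rmrp ribozyme row between 4602 and 5643 CPM per kb. That order rests on how reads were divided between the Rmrp rows. Both rows summed, over the 271 nt of the ribozyme row, had a mean of 6692 CPM per kb and ranged from 5964 to 7398, which overlaps Rpph1. The place of the lincRNA row alone (1169 to 1917 CPM per kb) beside Malat1 (967.5 to 1064) is uncertain for the same reason.

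No member passed the genotype test. The edgeR quasi-likelihood test over all rows called 0 of the 7 rows at an adjusted p under 0.05, against 0.00552% of all rows tested, which is 1 row, the one outside the annotation. DESeq2 also called 0 of the 7 rows, against 1.15% of all rows, here the 19977 rows to which DESeq2 gave an adjusted p. Without adjustment, 0 of 7 rows had a p under 0.05, against 11.0% of all rows. The groups did not overlap for 0 of 7 rows, against 16.5% of all rows. With so few members, a count of 0 is near the background. The median log2 fold change of the 7 rows was -0.0033, and that of all rows tested was 0.0039.

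The intervals were narrow for the short RNAs. 7SL RNA had a log2 fold change, knockout over wild type, of -0.011 ± 0.066 (SE, edgeR adjusted p = 0.968), with a 95% interval from -0.16 to 0.14. In linear terms this interval runs from 0.894-fold to 1.10-fold. The permutation test of its log2 CPM, exact and two-sided, gave p = 0.8, where the smallest value that 3 against 3 libraries allow is 0.1. 7SK RNA had 0.0042 ± 0.058 (edgeR adjusted p = 0.986), with an interval from -0.13 to 0.14.

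Rpph1 had a log2 fold change of 0.0090 ± 0.058 (SE, edgeR adjusted p = 0.972), with a 95% interval from -0.12 to 0.14. The Rmrp ribozyme row had -0.010 ± 0.075 (edgeR adjusted p = 0.975), with an interval from -0.18 to 0.16. The lincRNA row of Rmrp was less certain, at -0.16 ± 0.19 (edgeR adjusted p = 0.797), with an interval from -0.58 to 0.27. Its lowest library was wild-type replicate 3 and its highest was wild-type replicate 1, so the wild-type libraries span all the knockout values.

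Malat1 gave the tightest interval, with a log2 fold change of -0.0033 ± 0.053 (SE, edgeR adjusted p = 0.988) and 95% bounds of 0.917-fold and 1.09-fold. Neat1 was the only member whose fold change lay above 0.1 on the log2 scale, at 0.18 ± 0.10 (SE), with an interval from -0.04 to 0.40 that includes 0. Its p was 0.101 before adjustment and 0.547 after it in edgeR, and the adjusted p was 0.647 in DESeq2. Neat1 held 0.132% ± 0.0102 of wild-type and 0.152% ± 0.0141 of knockout libraries (SD, n = 3 each). Without ADCY3∆AT replicate 1, its highest library, the log2 fold change of Neat1 was 0.08 (edgeR adjusted p = 0.802), and without wild-type replicate 2 it was 0.26 (edgeR adjusted p = 0.604).

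**Figure D2:**
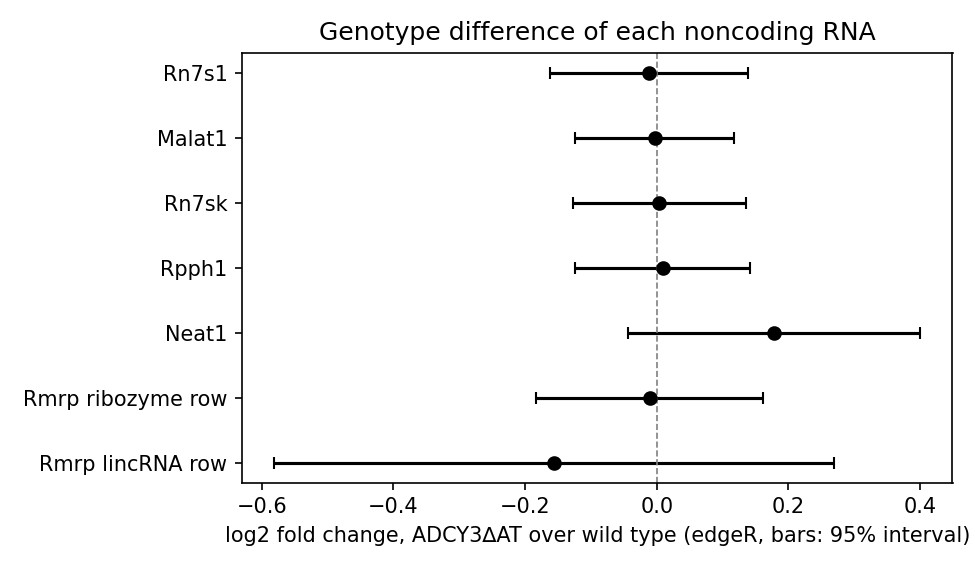
Log2 fold change of each row, knockout over wild type, from the edgeR fit of all rows. Points are estimates and bars are 95% intervals. All 7 intervals include 0, and those of Neat1 (-0.04 to 0.40) and of the Rmrp lincRNA row (-0.58 to 0.27) are the widest.

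Ratios within a library do not depend on library scaling. The ratio of Malat1 to Neat1 counts was 5.91, 4.99 and 5.31 in wild-type libraries and 4.03, 5.20 and 5.14 in knockout libraries. The means were 5.40 ± 0.466 and 4.79 ± 0.659 (SD, n = 3 each), and the permutation test of the log2 ratio, exact and two-sided, gave p = 0.4. ADCY3∆AT replicate 1 alone lay below all the other libraries, while the other knockout libraries lay within the wild-type range. The ratio of Rmrp, both rows summed, to Rpph1 was 0.912, 0.881 and 0.833 in wild-type libraries and 0.816, 0.816 and 0.899 in knockout libraries, and the exact permutation test gave p = 0.3. RNase MRP and RNase P share most of their protein subunits. The ratio of their RNA subunits stayed between 0.816 and 0.912 over the 6 libraries, with overlapping groups.

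**Figure D3:**
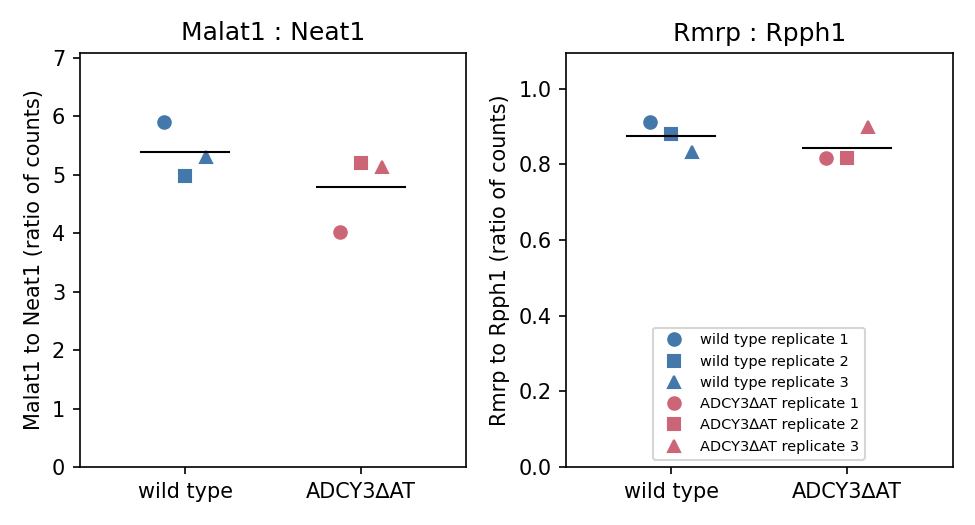
Ratio of counts within each library, Malat1 to Neat1 on the left and Rmrp (both rows) to Rpph1 on the right, with axes from 0. Points are libraries and black lines are genotype means. ADCY3∆AT replicate 1 has the lowest Malat1 to Neat1 ratio, 4.03, and the genotypes overlap in both panels.

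The members differed in how much they varied. The coefficient of variation of CPM over the 6 libraries was 3.60% for Malat1, 4.29% for Rpph1, 4.43% for Rn7sk, 5.85% for Rn7s1 and 6.72% for the Rmrp ribozyme row. It was 11.8% for Neat1 and 20.6% for the Rmrp lincRNA row. The median was 11.7% over all rows tested and 6.52% over the 96 rows with a mean of at least 1000 CPM. Of all rows tested, 6.74% varied less than Malat1.

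All 7 rows lay above their means in the same pair of libraries, 1 of each genotype. Relative to the mean over libraries, log2 CPM of 7SL RNA was 0.10 higher in wild-type replicate 2 and 0.10 higher in ADCY3∆AT replicate 3, and 7SK RNA was 0.09 and 0.08 higher in the same libraries. The Rmrp ribozyme row (0.11 and 0.10) and Rpph1 (0.08 and 0.06) were also above their means there. So were the Rmrp lincRNA row (0.14 and 0.20), Malat1 (0.05 and 0.03) and Neat1 (0.07 and 0.008), so this was not particular to the short RNAs. The largest deviation of Neat1 was 0.27, in ADCY3∆AT replicate 1. Wild-type replicate 2 also had the highest share of mitochondrially encoded rows, 20.7%, and ADCY3∆AT replicate 3 had the lowest, 17.9%.

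As a description over 6 libraries, which share depth and scaling, Pearson's r of log2 CPM was 0.94 between the Rmrp ribozyme row and Rpph1, 0.91 between Rpph1 and Malat1 and 0.90 between Rn7s1 and Rn7sk. For the latter pair Spearman's rho was 0.54, so the order of the libraries was less alike. Neat1 had r between -0.19 and 0.28 with every other member. Its Spearman's rho was 0.83 with Rn7sk and from -0.09 to 0.31 with the others.

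**Figure D4:**
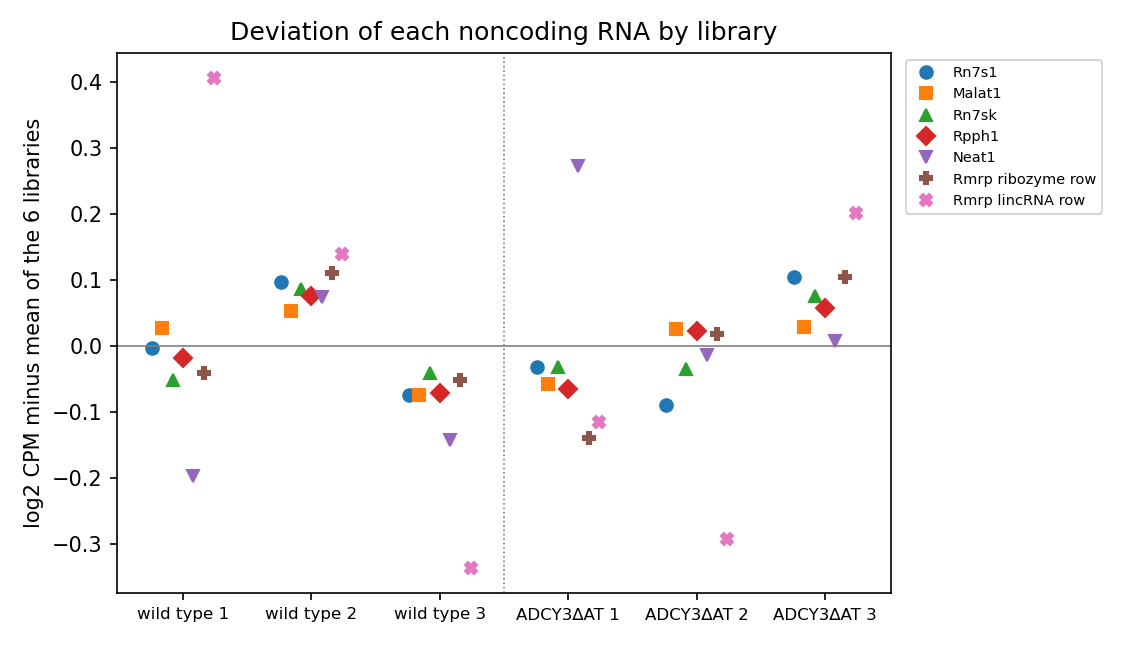
Log2 CPM of each row minus its mean over the 6 libraries. Each symbol is a row and the dotted line parts wild type from ADCY3∆AT. All 7 rows lie above 0 in wild-type replicate 2 and ADCY3∆AT replicate 3, and Neat1 is highest in ADCY3∆AT replicate 1.

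Genes of the proteins that work with these RNAs were examined by lists, whose median log2 fold changes ran from -0.04 to 0.03. Over all rows tested in edgeR, 11.0% had an unadjusted p under 0.05 in either direction. Of the 19977 rows with an adjusted p in DESeq2, 1.15% passed. Of the signal recognition particle and its receptor, 10 genes were tested, 0 passed in edgeR and 1 was lower at an unadjusted p under 0.05. Their log2 fold changes had a median of -0.04. The gene was Srp54c, a copy of the subunit that binds signal sequences, with 41.8, 45.7 and 42.2 CPM in wild-type libraries and 36.8, 35.3 and 32.4 CPM in knockout libraries. Every knockout library of Srp54c lay below every wild-type library, with a log2 fold change of -0.31 ± 0.06 (SE) that passed in DESeq2 (adjusted p = 0.0264) and did not in edgeR (adjusted p = 0.176). Its copies Srp54a (-0.20 ± 0.09, edgeR adjusted p = 0.466) and Srp54b (-0.17 ± 0.12, edgeR adjusted p = 0.624) had overlapping groups. Counting can divide reads among these near-identical copies, so each alone is uncertain.

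Of the 7SK particle and P-TEFb, 11 genes were tested, 0 passed in edgeR or DESeq2 and 0 had an unadjusted p under 0.05. The log2 fold changes ran from -0.10 to 0.09, with a median of -0.02. The lowest p-values were those of the cyclin Ccnt2 (0.08 ± 0.05, SE), the helicase Ddx21 (-0.10 ± 0.08) and Larp7, which binds the 3′ end of 7SK RNA (-0.09 ± 0.07).

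RNase P and RNase MRP had 11 tested protein genes with a median log2 fold change of -0.03, of which 0 passed in edgeR or DESeq2. In edgeR 1, Rpp25l, was lower at an unadjusted p under 0.05. The lowest p belonged to Rpp25l, followed by Pop4 and Rpp14. Rpp25l had 6.62, 7.63 and 7.52 CPM in wild-type libraries and 5.95, 5.63 and 6.46 CPM in knockout libraries. The log2 fold change was -0.27 ± 0.10 for Rpp25l (SE, edgeR adjusted p = 0.402), -0.15 ± 0.07 for Pop4 and -0.15 ± 0.08 for Rpp14. RNA polymerase III and its factors had 33 tested genes, 0 passed in edgeR or DESeq2, 1 was lower at an unadjusted p under 0.05, and the median was -0.03. That gene was the subunit Polr3d (-0.18 ± 0.07, edgeR adjusted p = 0.417), followed by the catalytic subunit Polr3a (-0.11 ± 0.07) and the factor Zfp143 (-0.13 ± 0.08).

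Nuclear speckle proteins, 22 tested, had a median log2 fold change of 0.03, with 0 calls in edgeR or DESeq2, and 2 higher and 1 lower at an unadjusted p under 0.05. These were the splicing proteins Srrm2 (0.14 ± 0.06, SE) and Acin1 (0.13 ± 0.05), and Srsf3 (-0.14 ± 0.06). Paraspeckle proteins, 20 tested, had a median of -0.0039 and 0 calls in edgeR or DESeq2. Among the lowest p-values were those of Pspc1 (-0.14 ± 0.07, SE) and Ss18l1 (0.27 ± 0.13).

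**Figure D5:**
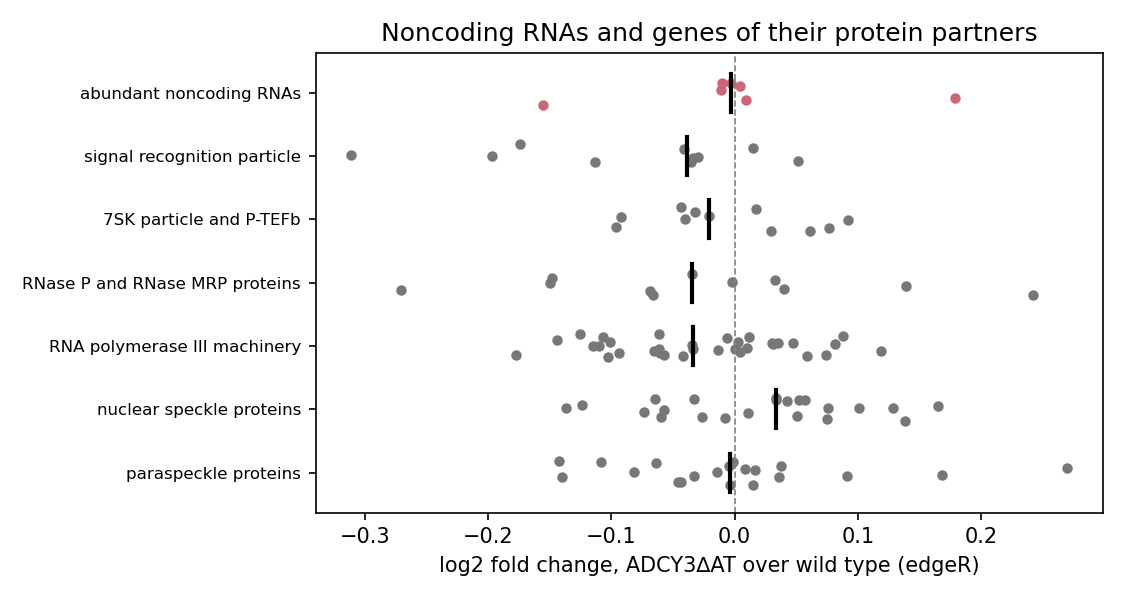
Log2 fold change, knockout over wild type (edgeR), of the 7 noncoding RNA rows and of the genes of their protein partners. Points are rows, jittered in height, and black bars are medians. The list medians run from -0.04 for the signal recognition particle to 0.03 for nuclear speckle proteins.

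Other short structural RNAs had far lower shares than 7SL RNA. How far the libraries kept RNAs of each length was not tested, so these are shares of counts only. Rnu1a1, a U1 spliceosomal RNA, had 984.3, 1315 and 832.3 CPM in wild-type libraries and 823.3, 912.9 and 1023 CPM in knockout libraries, highest in wild-type replicate 2. The short cytoplasmic RNAs Rny3 (a Y RNA) and Bc1, and Rnu12 of the minor spliceosome, had means from 13.7 to 22.6 CPM in wild-type libraries. Rnu3b1, a U3 snoRNA, has 2 rows, and the second was listed at 0 in wild-type replicate 1, where the first was highest at 344.0 CPM. Both rows summed gave 344.0, 427.6 and 264.8 CPM in wild-type libraries and 219.6, 266.3 and 390.4 CPM in knockout libraries. Of 14 rows of short structural RNAs tested, 0 passed in edgeR or DESeq2 and 12 had a fold change below 0 (median log2 fold change -0.31), against 49.1% of all rows tested. The summed level of the list overlapped between genotypes, at 1217 to 1857 CPM of library totals in wild-type libraries and 1119 to 1564 CPM in knockout libraries. Beside Rnu3b1 (first row, -0.58 ± 0.24, SE) the lowest p-values were those of Rnu5g (-1.38 ± 0.91), listed at 0 in ADCY3∆AT replicate 2, and Bc1 (0.19 ± 0.13). Rnu3a, also a U3 snoRNA, has 2 tested rows as well. The row with a mean of at least 10 CPM had 39.3 ± 10.3 CPM in wild-type libraries and 38.3 ± 13.6 CPM in knockout libraries (SD, n = 3 each). Its log2 fold change was -0.04, and that of the other Rnu3a row was -0.37.

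Among the ribosomal RNA rows tested, the row CT010467.1, of the rRNA class, had 1488 ± 193 CPM in wild-type libraries and 1526 ± 147 CPM in knockout libraries (SD, n = 3 each), less than Rpph1. The mitochondrial rRNAs mt-Rnr1 (6239 ± 962 and 5769 ± 503 CPM) and mt-Rnr2 (55438 ± 6204 and 51867 ± 5056 CPM) were higher, and mt-Rnr2 lay below 7SL RNA in every library. None of these 3 rows passed in edgeR or DESeq2.

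The list of other long noncoding RNAs had 32 tested members, of which 0 passed in edgeR and 1 was lower in DESeq2, against 1.15% of all rows. At an unadjusted p under 0.05, 2 were higher and 3 lower, against 11.0% of all rows in either direction. Mir22hg, the host of a microRNA, had 32.2, 30.3 and 35.9 CPM in wild-type libraries and 23.8, 23.6 and 27.1 CPM in knockout libraries, a log2 fold change of -0.40 ± 0.08 (SE) that passed in DESeq2 (adjusted p = 0.00948) and not in edgeR (adjusted p = 0.166). H19, an imprinted RNA, had 10.1, 6.00 and 13.4 CPM in wild-type libraries and 1.53, 3.07 and 4.84 CPM in knockout libraries (-1.64 ± 0.40, edgeR adjusted p = 0.226). H19 took the same order over the 6 libraries as the summed skeletal muscle markers, which were 2788, 1841 and 5005 CPM in wild-type libraries and 294.9, 711.3 and 1034 CPM in knockout libraries, and the part of muscle in its value was not tested. The imprinted RNAs Meg3 (0.28 ± 0.09) and Rian (0.21 ± 0.08) of a shared cluster were higher in each knockout library than in any wild-type library, and the edgeR adjusted p was 0.323 and 0.382.

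The remaining long noncoding RNAs with at least 10 CPM on average were 2900097C17Rik, Kcnq1ot1, Tug1, Dleu2, Firre, Gas5 and Lncbate1. 2900097C17Rik had 209.1 ± 6.3 CPM in wild-type libraries and 183.7 ± 14.6 CPM in knockout libraries (SD, n = 3 each; edgeR adjusted p = 0.367), without overlap. Kcnq1ot1, an imprinted antisense RNA, had 214.1 ± 22.5 and 188.0 ± 10.6 CPM, with overlap. Tug1 had 95.6 ± 3.4 and 96.6 ± 2.7 CPM. Lncbate1, an RNA known from brown adipocytes, had 24.2 ± 1.6 and 21.4 ± 3.8 CPM, with a log2 fold change of -0.18 ± 0.12 (SE, edgeR adjusted p = 0.638). The log2 fold change was -0.10 for Dleu2, 0.03 for Firre and -0.14 for Gas5.

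For each member, the genes with the most similar course over the 6 libraries were sought by Pearson's r of log2 CPM among 10974 genes. The genes were picked as the highest of 10974 values of r over only 6 libraries, so these are descriptions. Nearest to Rn7s1 were Shld2 (r = 0.998), Reps1 (0.979) and Snhg17 (0.979), and nearest to Rn7sk were Mphosph8 (0.986), Fam192a (0.984) and Polr3c (0.982), a subunit of RNA polymerase III. Zbtb8os, Ubtd1 and Smndc1 lay nearest to the Rmrp ribozyme row (r from 0.975 to 0.996), and Clic4, Abracl and Zfp58 to the lincRNA row (0.979 to 0.990). Foxp4, Mgp and Fam222b lay nearest to Rpph1 (0.975 to 0.984), and Il18bp, Napg and Aptx to Malat1 (0.990 to 0.996).

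Neat1 was followed most closely by Acaa1a, a peroxisomal thiolase of fatty acid breakdown (r = 0.990), Klf10, a transcription factor (0.985), and Zfp74 (0.984). Klf10 had 23.1, 29.7 and 23.8 CPM in wild-type libraries and 38.3, 29.2 and 29.7 CPM in knockout libraries, so ADCY3∆AT replicate 1 was highest for Klf10 as for Neat1. None of the 3 passed the genotype test in edgeR, with adjusted p-values of 0.660, 0.388 and 0.665.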

How the data were processed

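The deposited values are estimated counts for each Ensembl gene, made by the authors and not scaled to depth. Per the submitters' processing notes, Salmon, StringTie and edgeR were used with GRCm38; the notes give no versions or roles. Per the labels' protocols, the libraries were paired-end, made from total RNA with the NEBNext Ultra II RNA kit. Use of strand, removal of ribosomal RNA and handling of reads that match several rows were not described there. Of 54385 rows, 54131 matched a GENCODE M21 symbol.

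Estimated counts were rounded, filtered with filterByExpr (18114 rows kept), scaled with TMM factors and tested with edgeR 4.0.16 (quasi-likelihood F test, R 4.3.3) on genotype alone. P-values were adjusted over all rows by Benjamini-Hochberg, with a threshold of 0.05. CPM values are TMM-normalised except for CPM per kb, Ucp1 and the summed levels of gene lists, which are CPM of library totals, and log2 CPM used a prior count of 2. Shares are percentages of a library's total. Standard errors are those implied by the F statistic, and 95% intervals use its degrees of freedom. Single values were compared with exact two-sided permutation tests (scipy, 20 assignments). Alternatives used DESeq2 1.42.0, limma 3.58.1, other scalings and filters, and libraries left out in turn. The 6 pairs of libraries within a genotype differed by more than sampling noise (chi-square per degree of freedom from 24.1 to 59.8). The fits were tested on simulated data. At an adjusted p under 0.05, edgeR recovered 35.2% of 1.5-fold and 91.9% of 4-fold changes. Of the calls in those data, 3.68% in edgeR and 17.7% in DESeq2 were rows given no change. Rows called by DESeq2 alone are therefore less certain. The recovery rates hold for the simulated data only. In the deposited data edgeR called 0 of the 30 skeletal muscle markers, whose median log2 fold change was -2.96.

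Named are all 7 members, the 3 tested genes with the lowest p of each list described, noncoding rows of at least 10 CPM, the 3 genes most alike each member, and Adcy3. The members and lists were chosen with earlier results of these data known. Mt-Co1 and Ckm were singled out after their values were seen. A gene that the rule names and a sequence are not reported here.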

Additional observations from a re-analysis of the deposited data

How the results depend on the processing

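In 113 refits of the members no adjusted p fell under 0.05 (0.405 to 1.00). Neat1 stayed above 0 in 16 of 16 alternatives. Its unadjusted p fell under 0.05 with library totals alone (0.0425), with no low-count filter (0.0383) and without wild-type replicate 2 (0.0277). Fold changes near 0 turned sign: with library totals alone Rn7s1 had 0.0062, the Rmrp ribozyme row 0.0081, Malat1 0.014 and the exact permutation test's difference for 7SL RNA 0.0038, and with voom quality weights Rn7sk had -0.0083 and Malat1 0.0084.

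Leaving out each library gave log2 fold changes from -0.069 to 0.035 for Rn7s1, -0.034 to 0.049 for Rn7sk, -0.067 to 0.053 for the Rmrp ribozyme row, -0.33 to 0.026 for its lincRNA row, -0.025 to 0.050 for Rpph1, -0.041 to 0.024 for Malat1 and 0.08 to 0.26 for Neat1. The differences in log2 ran from -0.067 to 0.034 for 7SL RNA, -0.24 to -0.06 for Malat1 to Neat1 and -0.10 to -0.02 for Rmrp to Rpph1. The 7 rows' share ran from 8.54% to 8.79% in wild type and 8.38% to 8.92% in ADCY3∆AT.

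Without mitochondrially encoded rows in the total that share was 10.74% in both genotypes, and over protein-coding counts it was 10.8% and 10.9%. Over all rows 1 was called. DESeq2 called 229, no low-count filter 214, voom 2, quality weights 2, robust estimation 2 and the replicate block 3, and leaving out a library gave from 1 to 66, the highest without ADCY3∆AT replicate 3. The cause of these moves was not tested. Replicate numbers did not pair the libraries (correlations of -0.0857, -0.128 and -0.0864), and with the replicate block no member was called.

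Summing both 7SL rows was not run, since Rn7s2 had no row here. The ratio with the ribozyme row alone, the Rmrp sum in the fit and per kb, leaving out libraries for the single values and 7SL with library totals were chosen after seeing the data.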

Other observations

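Replication-dependent histone messages, which mostly lack a poly(A) tail and are therefore read in total RNA, had 42 tested genes. Of these 39 had a positive log2 fold change, with a median of 0.24, against 50.9% positive over all rows tested. In edgeR and DESeq2 0 passed, and 1 higher and 1 lower had an unadjusted p under 0.05, against 11.0% of all rows in either direction. Their summed level was 539.8, 555.4 and 558.3 CPM in wild-type libraries and 529.1, 566.4 and 650.7 CPM in knockout libraries, so ADCY3∆AT replicate 3 was highest and ADCY3∆AT replicate 1 lowest. The linker histone Hist1h1e had a log2 fold change of 0.20 ± 0.05 (SE, edgeR adjusted p = 0.238), Hist2h2aa1 had -0.39 ± 0.16 and Hist1h2bj had 0.39 ± 0.18.

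Markers of other cells differed in the same libraries, and their part in any value was not tested. All 30 skeletal muscle markers had a negative fold change, against 49.1% of all rows tested. Of these, 29 had an unadjusted p under 0.05 in edgeR, against 11.0% of all rows. After adjustment 0 passed in edgeR and 9 in DESeq2, against 0.00552% and 1.15% of all rows. The lowest p-values were those of Ldb3 (log2 fold change -2.26), Klhl41 (-2.31) and Tnni1 (-5.57). The summed endothelial markers were 1173 to 1276 CPM in wild-type libraries and 1283 to 1392 CPM in knockout libraries, without overlap. Of these 10 markers 0 passed in edgeR and 4 had an unadjusted p under 0.05, against 11.0% of all rows. Fold changes were positive for 8 and negative for 2, Kdr (log2 fold change -0.04) and Emcn (-0.07). Cdh5 was higher in DESeq2 (log2 fold change 0.28 ± 0.07, SE, DESeq2 adjusted p = 0.0202). By edgeR p, Cldn5 (0.81) and Pecam1 (0.19) followed. Of the brown adipocyte list, Dio2, which activates thyroid hormone, had a log2 fold change of -0.75 ± 0.25 (SE, edgeR adjusted p = 0.334, DESeq2 adjusted p = 0.543), also without overlap. Lep, an adipocyte gene on that list that is not particular to brown fat, had 1.12 ± 0.65 with overlap. The summed macrophage markers (123.5 to 194.4 and 140.7 to 212.7 CPM), fibroblast and progenitor markers (411.8 to 535.4 and 494.3 to 575.3 CPM) and erythroid markers (1394 to 2027 and 1324 to 1506 CPM) overlapped between genotypes. Fold changes were positive for 8 of 10 macrophage and 8 of 10 fibroblast and progenitor markers, against 50.9% of all rows. All 8 tested erythroid markers had a negative one, against 49.1%. At an unadjusted p under 0.05 in edgeR were 2, 1 and 1 markers of these lists, against 11.0% of all rows. After adjustment 0 passed in edgeR or DESeq2, against 0.00552% and 1.15% of all rows.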
